A study of Mus musculus with 6 samples.

Results

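The keratin genes of mouse medullary thymic epithelial cells (mTECs) were described in cells in which Jmjd3 had been targeted and in control cells. The members were all genes whose symbol is Krt followed by a number, and this gave 51 of the 20443 genes in the tables, each on 1 row. Keratin-associated proteins and Krtdap do not belong to the family and were left out. mTECs are the stromal cells of the thymic medulla, which show peripheral self-antigens to developing T cells. The cKO group comprised 3 libraries (cKO_262, cKO_263 and cKO_265) from mice with floxed Jmjd3 alleles and Foxn1-cre, and the Con group comprised 3 libraries (Con_253, Con_261 and Con_264) from mice with floxed Jmjd3 alleles and no Cre. All mice were C57BL/6 and 4 weeks old, and the mTECs were sorted by flow cytometry. Jmjd3, whose gene symbol is Kdm6b, is a demethylase of lysine 27 of histone H3. Foxn1 regulatory sequence directs Cre to thymic epithelial cells in general, so the targeting is not limited to the medulla, and an effect of Cre itself cannot be told apart from that of the allele because the Con mice lacked it. The labels do not say outright that each library is from a separate animal, so the p-values measure the spread between libraries.

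Keratins are the intermediate filament proteins of epithelial cells. A filament is built from pairs of 1 type I and 1 type II keratin, and each kind of epithelium is known for its own pairs: Krt8 with Krt18 in simple epithelium, Krt5 with Krt14 in the basal layer of stratified epithelium, and Krt1 with Krt10 in the suprabasal epidermis. In the mouse thymus, antibodies to Krt5 and Krt14 are commonly used to mark the medulla and antibodies to Krt8 and Krt18 to mark the cortex. Late mTECs, among them the cells of Hassall's corpuscles, are known to make keratins and other proteins of the cornifying epidermis, and Krt10 is a common marker of them. The family was divided by textbook site of expression into 7 simple keratins, 3 basal, 7 suprabasal epidermal, 4 suprabasal mucosal, 7 of activation and appendages, 7 of the inner root sheath and 15 of the hair shaft. Krt222 belonged to none of these. By type, 28 members were type I and 23 type II. In the tables' coordinates 27 members lay on chromosome 11 and 24 on chromosome 15, where Krt18 is the type I gene.

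Values are FPKM, which count fragments relative to transcript length and to the mapped fragments of a library, so levels can be compared between genes per length. How many reads lie behind a value is unknown. Per library values are given below in the order cKO_262, cKO_263, cKO_265 and Con_253, Con_261, Con_264. The summed FPKM of all genes ranged over 582835 to 641060 in cKO libraries and 461152 to 543156 in Con libraries, and the 2 ranges do not overlap. The targeted gene, Kdm6b, had 11.1, 11.6 and 8.67 FPKM in cKO libraries, against 18.1, 17.1 and 9.998 FPKM in Con libraries (log2 fold change -0.45, limma adjusted p = 0.418). The groups overlapped for it, and since the floxed exons are not given in the sources used here, the value of the whole gene does not check the labels. Con_253 was the only library with more than a trace of Y-linked expression (Eif2s3y at 7.88 FPKM, against at most 0.0409 FPKM in the other 5 libraries). Without it the log2 fold changes of Krt77, Krt10 and Krt71, described below, were -1.37, -1.25 and -0.75. The mTEC marker genes, among them Aire and Epcam, summed to 5704 to 6730 FPKM in cKO libraries and 5741 to 6471 FPKM in Con libraries. Most of this sum was the MHC class II gene H2-Aa, at 3621 to 4468 FPKM in cKO libraries and 3938 to 4441 FPKM in Con libraries. Aire had 317.4 to 504.2 FPKM in cKO libraries and 230.3 to 398.9 FPKM in Con libraries. Markers of cortical epithelium were also present, at 567 to 783 FPKM in cKO libraries and 612 to 666 FPKM in Con libraries. Most of that sum was Ccl25 and Ctsl, while Psmb11 had 3.9 to 5.08 FPKM in cKO libraries and 3.46 to 5.31 FPKM in Con libraries.

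The keratin message of both groups was dominated by the same 5 genes, a mix of appendage, simple and basal keratins. Krt17, Krt8, Krt14, Krt18 and Krt5 together held 89.1% ± 0.781 of the summed keratin FPKM in cKO libraries and 86.0% ± 0.987 in Con libraries (SD, n = 3 each). Krt17 was the highest member, with a mean of 2475 ± 219 FPKM in cKO libraries and 2031 ± 170 FPKM in Con libraries. Beneath these 5 genes the levels dropped steeply, to 189.5 ± 31.8 FPKM in cKO libraries and 206.8 ± 17.5 FPKM in Con libraries for Krt7. The summed keratin FPKM was 6595, 6724 and 5903 in cKO libraries, against 6064, 5948 and 5357 in Con libraries. As a share of all summed FPKM this was 1.13%, 1.06% and 0.921% in cKO libraries and 1.12%, 1.17% and 1.16% in Con libraries, so the order of the groups depends on whether the larger sums of the cKO libraries are taken into account. Between 39 and 42 keratins reached 1 FPKM in a cKO library and between 44 and 47 in a Con library. All genes showed a difference of the same direction: 13668 to 13801 reached 1 FPKM in a cKO library and 14024 to 14205 in a Con library, and the median tested gene had 6.16 to 6.49 FPKM in cKO libraries and 6.76 to 6.79 FPKM in Con libraries.

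**Figure D1:**
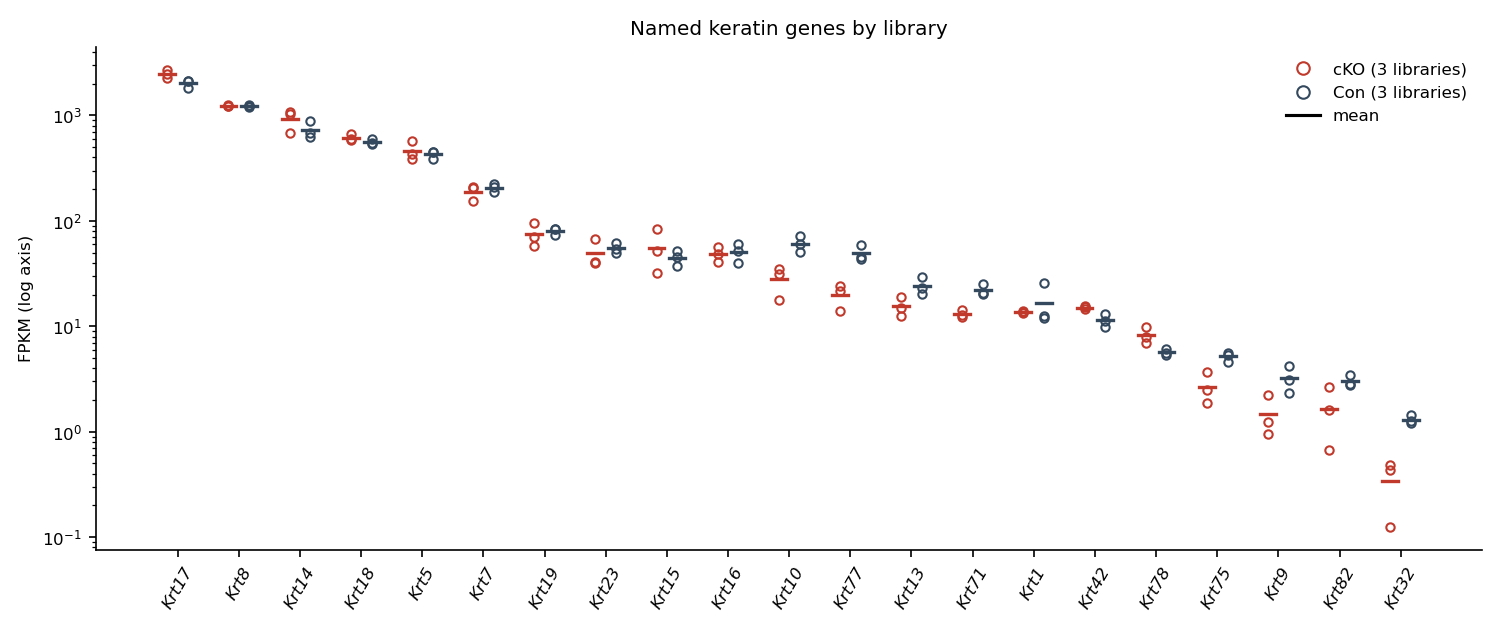
FPKM (log axis) of the 21 keratin genes described one by one, from the highest to the lowest mean over the 6 libraries; each point is 1 library (cKO left, Con right) and each line a group mean. The abundant keratins at the left overlap or nearly meet, whereas Krt10, Krt77, Krt71, Krt75 and Krt32 have all 3 cKO libraries beneath all 3 Con libraries.

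The largest differences on the log2(FPKM + 1) scale were those of Krt77 and Krt10, suprabasal epidermal keratins of moderate level. No keratin passed the test over all genes. Of the 51 members 47 were tested, being those that averaged 0.5 FPKM or more across all 6 libraries. At an adjusted p under 0.05, limma called 0 of these 47 changed, against 0.0763% of all 15720 genes tested (12 genes, of which 3 or 0.0191% were higher and 9 or 0.0573% lower in cKO libraries). At an unadjusted p under 0.05, 9 of the 47 had lower values in cKO libraries (19.1%, against 7.82% of all genes) and 2 had higher values (4.26%, against 6.81% of all genes). All 3 cKO libraries lay beneath all 3 Con libraries for 10 tested keratins (21.3%, against 11.9% of all genes) and above them for 3 (6.38%, against 9.59% of all genes). By class, the 10 were 3 of 7 suprabasal epidermal, 1 of 4 suprabasal mucosal, 1 of 7 activation and appendage, 3 of 6 inner root sheath and 2 of 12 hair shaft keratins. The hair shaft share (16.7%) was near that of all genes. A log2 fold change of -0.5 or less, cKO minus Con, was found for 10 of the 47 (21.3%, against 7.63% of all genes). The median log2 fold change was -0.14 over the tested keratins and -0.035 over all tested genes. For the keratins it was -0.17 with quantile normalization and -0.064 with median centring, against 0.0083 and 0.046 for all genes. With libraries weighted by their fit to the model (limma's arrayWeights), the 2 medians were nearly equal, at -0.037 for the keratins and -0.034 for all genes. In each cKO library separately, the median keratin stood beneath the mean of the Con libraries, at -0.22, -0.053 and -0.17 on the log2 scale, against -0.018, 0.056 and -0.051 in the Con libraries. The Con libraries are part of that mean, which holds their values near 0, and cKO_263 was level with Con_264. All genes were not taken library by library, so these values do not set keratins apart from other genes.

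The absence of called keratins depends on how libraries are scaled and weighted. Dividing each library by its own sum moved the median of all tested genes to -0.30, because the cKO libraries have the larger sums, and 4 keratins then passed: Krt77 at -1.61 (adjusted p = 0.0126), Krt71 at -1.02 (adjusted p = 0.0321), Krt10 at -1.44 (adjusted p = 0.0399) and Krt32 at -1.24 (adjusted p = 0.046). Relative to the shifted median their fold changes were -1.31, -0.72, -1.14 and -0.94. With this scaling 1.17% of all genes were called lower and 0.0593% higher in cKO libraries (197 and 10 genes), against 9 and 3 genes with FPKM as deposited. With libraries weighted by limma's arrayWeights, 12 keratins passed, 10 of them lower and Krt14 and Krt78 higher, in a fit that called 10.5% of all genes lower and 8.7% higher in cKO libraries.

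**Figure D2:**
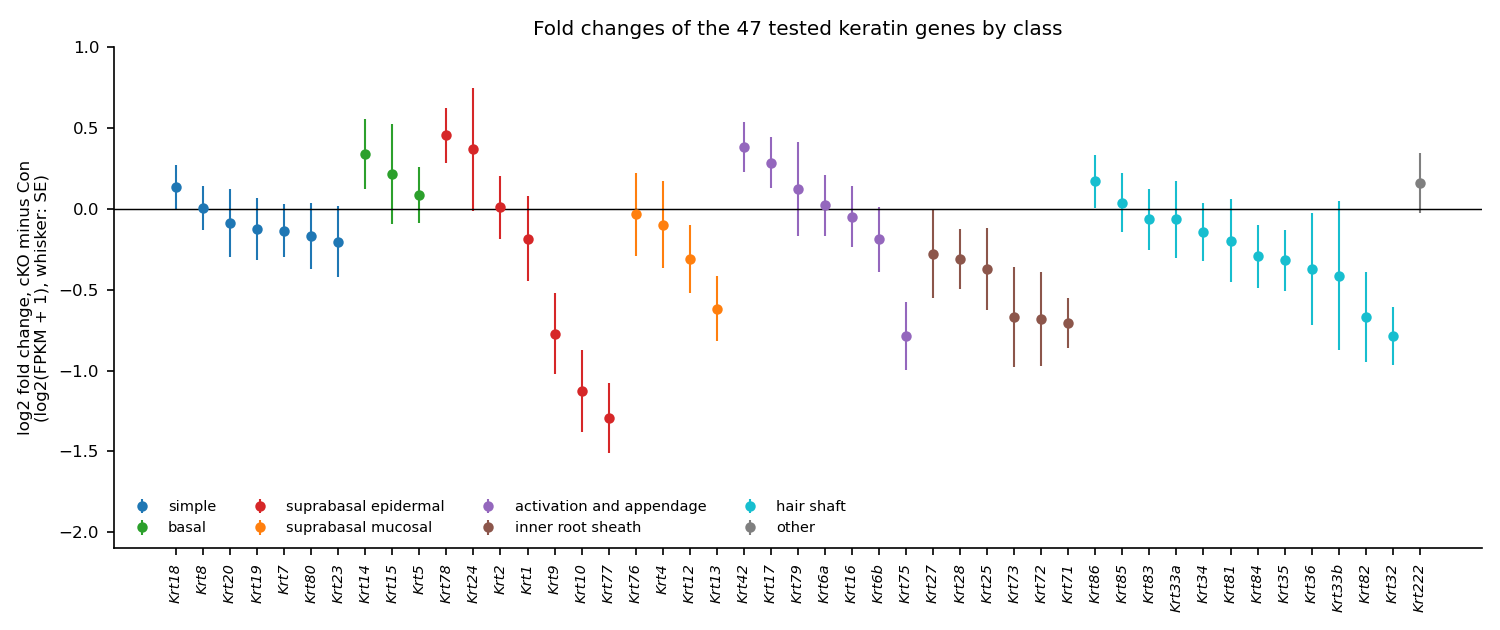
Log2 fold change (cKO minus Con, on log2(FPKM + 1)) of the 47 tested keratins, ordered by class and coloured by it, with the standard error of the fit as whiskers. Values from -1.29 (Krt77) to 0.45 (Krt78) are spanned within the suprabasal epidermal class, all 6 tested inner root sheath keratins are beneath 0, and the simple keratins lie between -0.20 and 0.13.

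The start regions of 5 keratins are shown: those of Krt77, Krt71 and Krt10, the members with the smallest p, that of Krt73, which lies near Krt71 and is in the same class, and that of Krt8, an abundant member whose groups overlapped. RefSeq promoter sequences (build GRCm38.p6, from 250 bases before the start of a gene to 50 after it) were found for 35 of the 51 members with a second start for Krt13. Of these 36 windows 34 started within 100 bases of the start in the tables (28 bases outside it for Krt73, 87 outside it for Krt77, and at it for Krt10, Krt71 and Krt8). That of Krt14 and one of Krt13 started 1480 and 918 bases inside the gene. Capitals mark exact matches, on either strand and anywhere in the window, to TATAAA (1 form of the TATA box) and CCNCNCCC (a site for KLF factors). TGANTCA (AP-1) and GCCNNNGGC (AP-2) were also searched for. Looser TATA-like stretches, such as tatatata in the window of Krt77, were not marked or counted. Krt77 (chr15:101869656-101869955, minus strand) has a KLF match at -73 and Krt10 (chr11:99389315-99389614, minus strand) a TATAAA match at -26. Krt71 (chr15:101743048-101743347, minus strand) and Krt73 (chr15:101802311-101802610, minus strand) have TATAAA matches at -40 and -30. Krt8 (chr15:102004293-102004592, minus strand) has a KLF match at -160 and overlapping TATAAA matches at -3 and -1, 1 on each strand.
Krt77: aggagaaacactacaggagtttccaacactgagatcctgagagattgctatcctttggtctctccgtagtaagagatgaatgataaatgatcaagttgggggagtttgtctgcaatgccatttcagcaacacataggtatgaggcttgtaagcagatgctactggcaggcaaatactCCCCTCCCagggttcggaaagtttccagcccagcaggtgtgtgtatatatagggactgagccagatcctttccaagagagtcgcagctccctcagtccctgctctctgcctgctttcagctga
Krt10: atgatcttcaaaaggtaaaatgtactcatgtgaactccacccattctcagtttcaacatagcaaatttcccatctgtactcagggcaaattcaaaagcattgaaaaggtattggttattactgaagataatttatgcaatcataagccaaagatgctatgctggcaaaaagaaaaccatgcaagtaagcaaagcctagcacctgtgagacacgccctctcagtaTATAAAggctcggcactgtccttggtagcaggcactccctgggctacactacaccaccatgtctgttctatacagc
Krt71: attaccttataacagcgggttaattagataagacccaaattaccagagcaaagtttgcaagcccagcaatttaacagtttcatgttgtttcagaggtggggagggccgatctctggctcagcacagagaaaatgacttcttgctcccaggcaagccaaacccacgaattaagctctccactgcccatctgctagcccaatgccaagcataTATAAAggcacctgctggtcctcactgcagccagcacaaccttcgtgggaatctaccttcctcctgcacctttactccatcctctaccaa
Krt73: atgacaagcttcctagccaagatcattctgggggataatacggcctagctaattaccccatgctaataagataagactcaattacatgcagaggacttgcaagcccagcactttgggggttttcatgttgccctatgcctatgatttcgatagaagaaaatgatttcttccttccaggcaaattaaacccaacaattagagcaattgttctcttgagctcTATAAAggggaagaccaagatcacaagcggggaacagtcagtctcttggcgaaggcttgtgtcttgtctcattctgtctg
Krt8: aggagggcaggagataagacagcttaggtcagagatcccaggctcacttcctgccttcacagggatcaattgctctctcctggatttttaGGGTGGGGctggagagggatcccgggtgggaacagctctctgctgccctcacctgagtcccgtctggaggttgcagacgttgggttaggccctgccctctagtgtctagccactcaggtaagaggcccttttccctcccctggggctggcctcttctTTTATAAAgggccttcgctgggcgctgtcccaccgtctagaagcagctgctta

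TATAAA was present in 19 of the 36 keratin promoters (52.8%), against 13.6% of all 32851 RefSeq promoters. An exact match was in all 7 promoters of inner root sheath keratins and in 6 of 9 of hair shaft keratins. It was in 1 of 6 of suprabasal epidermal keratins (that of Krt10) and absent from that of the basal keratin Krt5. Matches were counted anywhere in the window: the only ones of Krt72, Krt84 and Krt42 lay at -203, -206 and 20, against -30 for Krt73. A match is therefore not by itself a TATA box, and looser forms such as tatatata in Krt77 were not counted. The other motifs were about as common in keratin promoters as elsewhere: CCNCNCCC in 41.7% against 49.5%, GCCNNNGGC in 16.7% against 16.6% and TGANTCA in 5.56% against 7.81%. No inner root sheath promoter held CCNCNCCC. These matches describe the letters of the window and do not show that a factor binds there.

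The simple keratins showed no difference larger than the spread between libraries. Krt8, the type II keratin of simple epithelium, had 1247, 1222 and 1234 FPKM in cKO libraries, against 1240, 1262 and 1193 FPKM in Con libraries. The 6 libraries lay within a narrow band, and the log2 fold change was 0.0032 with a 95% interval from -0.30 to 0.31. Of the 50-base words in Krt8 transcripts 26.9% also occur in transcripts of another gene, so some of its reads may be shared. Its type I partner Krt18 had 595.8, 579.1 and 673.1 FPKM in cKO libraries, against 594.6, 549.2 and 538.9 FPKM in Con libraries. The highest Con library stood just under the middle cKO library, and the log2 fold change of 0.13 (95% interval -0.18 to 0.45) turned negative with quantile normalization and with scaling to equal sums. The ratio of Krt18 to Krt8 was 0.478, 0.474 and 0.545 in cKO libraries and 0.479, 0.435 and 0.452 in Con libraries.

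Other keratins of simple and glandular epithelium followed the same pattern. Krt7, found in ducts and other glandular linings, had 209.5, 206.1 and 152.9 FPKM in cKO libraries, against 223.6, 208.2 and 188.6 FPKM in Con libraries (log2 fold change -0.14, SE 0.16). Krt19, a type I keratin without the usual tail domain, had 70.5, 96.0 and 58.1 FPKM in cKO libraries, against 83.9, 83.9 and 72.9 FPKM in Con libraries (log2 fold change -0.13, SE 0.19). In both genes the lowest library was cKO_265, and without it the sign turned, to 0.011 for Krt7 and 0.039 for Krt19. Krt23 had 40.4, 39.5 and 67.9 FPKM in cKO libraries, against 50.1, 53.5 and 62.2 FPKM in Con libraries, with cKO_265 here the highest of all. Krt20, known from intestinal epithelium and urothelium, averaged 16.6 ± 3.16 FPKM in cKO libraries and 17.9 ± 4.16 FPKM in Con libraries (SD, n = 3 each), and Krt80 averaged 8.83 ± 2.42 and 9.81 ± 0.555 FPKM in the same order. Summed over the 7 genes, simple keratins came to 2185, 2168 and 2216 FPKM in cKO libraries and 2215, 2189 and 2084 FPKM in Con libraries.

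The 3 basal keratins had higher means in cKO libraries with wide spread, and none was called; the class median of 0.21 was -0.12 with quantile normalization. Krt14, the type I keratin of basal cells, had 1071, 1025 and 680.9 FPKM in cKO libraries, against 876.1, 677.4 and 625.5 FPKM in Con libraries. The pair of libraries cKO_262 and cKO_263 stood above all Con libraries while cKO_265 lay among them, and the log2 fold change was 0.34 (SE 0.22, limma adjusted p = 0.516), against -0.12 with quantile normalization. Krt5, its type II partner, had 565.4, 430.2 and 384.3 FPKM in cKO libraries, against 451.8, 448.0 and 387.9 FPKM in Con libraries. Its groups overlapped almost fully, the log2 fold change was 0.084 (SE 0.17), and the sign turned without cKO_262, with quantile normalization and with scaling to equal sums. Krt15, a basal keratin also known from the hair follicle bulge, had 31.7, 51.8 and 82.8 FPKM in cKO libraries, against 45.2, 51.9 and 36.9 FPKM in Con libraries. The cKO libraries thus held both the lowest and the highest value, and the fold change of 0.21 (SE 0.31) became -0.12 without cKO_265 and -0.082 with scaling to equal sums. The ratio of Krt14 to Krt5 was 1.89, 2.38 and 1.77 in cKO libraries and 1.94, 1.51 and 1.61 in Con libraries.

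On the log2(FPKM + 1) scale, the suprabasal epidermal keratins gave the largest differences of the family, in both directions. With 0.1 FPKM added instead, the low hair keratin Krt32 was at -1.78, against -1.33 for Krt77 and -1.16 for Krt10. Krt77 is a type II keratin of the suprabasal epidermis, whose start region holds tatatata but no exact TATAAA. Krt77 had 13.9, 24.1 and 21.4 FPKM in cKO libraries, against 43.9, 58.4 and 45.1 FPKM in Con libraries. The highest cKO library was well beneath the lowest Con library, and the cKO mean was 0.403 times the Con mean (log2 fold change -1.29, SE 0.22, limma adjusted p = 0.0986). Krt10, the type I keratin of the spinous and granular layers, had 35.3, 31.2 and 17.9 FPKM in cKO libraries, against 50.6, 72.4 and 59.6 FPKM in Con libraries. These groups were also apart, with a cKO mean 0.462 times the Con mean (log2 fold change -1.13, SE 0.25, limma adjusted p = 0.126). Leaving out 1 library at a time, the fold change ranged from -1.45 to -1.07 for Krt77 and from -1.31 to -0.84 for Krt10. In these bulk samples, fewer cells making a keratin and less of its RNA per cell cannot be told apart.

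The other members of the class gave mixed values, of which those of Krt9 were lower and those of Krt78 higher in cKO libraries. Krt1, the usual type II partner of Krt10, had 14.1, 13.7 and 13.3 FPKM in cKO libraries, against 12.0, 25.5 and 12.6 FPKM in Con libraries. A single high library, Con_261, set its negative fold change (-0.19, SE 0.26), which was 0.14 without that library. The ratio of Krt10 to Krt1 was 2.5, 2.27 and 1.34 in cKO libraries and 4.21, 2.84 and 4.72 in Con libraries, with no overlap. The lowest Con ratio was that of Con_261, the library with the high Krt1 value. Krt9, known from palm and sole skin, had 2.24, 1.24 and 0.954 FPKM in cKO libraries, against 2.33, 3.11 and 4.16 FPKM in Con libraries (log2 fold change -0.77, SE 0.25, adjusted p = 0.224). Its highest cKO library almost met its lowest Con library. Krt78 went the other way, with 6.95, 9.74 and 7.89 FPKM in cKO libraries, against 5.58, 5.38 and 6.03 FPKM in Con libraries (log2 fold change 0.45, SE 0.17, limma adjusted p = 0.273). All cKO libraries were above all Con libraries for Krt78, and the sign was positive in all 16 alternatives. Krt2, of the upper epidermis, averaged 1.86 ± 0.328 FPKM in cKO libraries and 1.85 ± 0.456 FPKM in Con libraries, and Krt24 averaged 4.2 ± 3.3 and 2.62 ± 0.668 FPKM in the same order (SD, n = 3 each). The high Krt24 mean of the cKO group came from cKO_262 at 8.0 FPKM. The 7 genes together summed to 82.0, 84.6 and 65.4 FPKM in cKO libraries and 119.5, 168.1 and 132.5 FPKM in Con libraries, most of it Krt10 and Krt77.

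**Figure D3:**
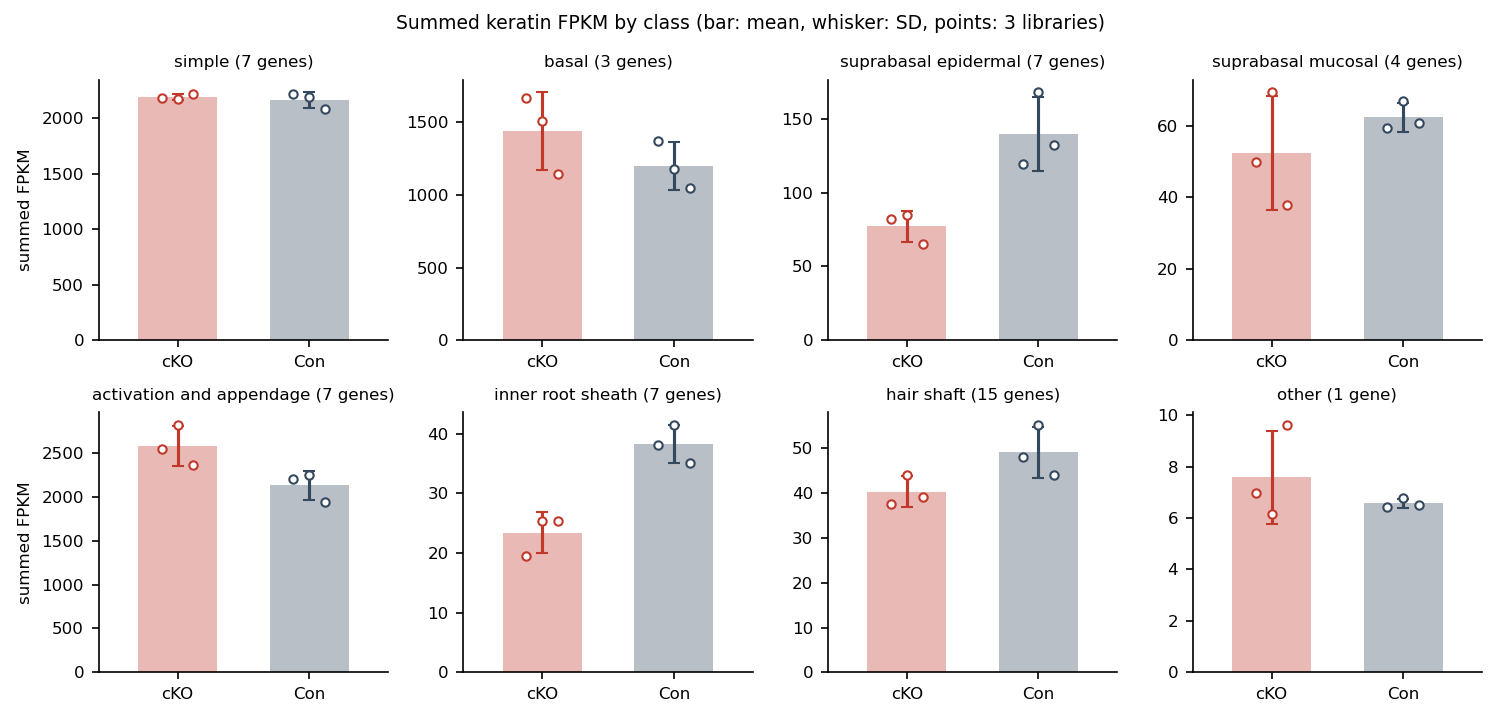
Summed FPKM of each keratin class per library, with one panel per class; bars are group means (cKO left, Con right), whiskers SD and points the 3 libraries of each group. Suprabasal epidermal keratins (77.3 ± 10.4 in cKO libraries, 140.0 ± 25.2 in Con libraries) and inner root sheath keratins (23.4 ± 3.44 in cKO libraries, 38.3 ± 3.2 in Con libraries) have lower cKO sums that do not overlap. Activation and appendage keratins, mostly Krt17, have higher cKO sums that do not overlap (2576 ± 230 in cKO libraries, 2130 ± 163 in Con libraries). Simple keratins differ little (2190 ± 24.0 and 2163 ± 69.2 in the same order).

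Among the mucosal keratins, Krt13 alone stood apart between the groups. Krt13, the type I keratin of the suprabasal layers of oral and oesophageal epithelium, had 15.1, 18.8 and 12.5 FPKM in cKO libraries, against 20.1, 29.3 and 23.0 FPKM in Con libraries. All cKO libraries were beneath all Con libraries by a small margin (log2 fold change -0.62, SE 0.20, limma adjusted p = 0.224). Krt4, its type II partner, averaged 13.1 ± 5.65 FPKM in cKO libraries and 13.5 ± 2.14 FPKM in Con libraries (SD, n = 3 each), and the groups overlapped. The ratio of Krt13 to Krt4 was 1.38, 0.958 and 1.39 in cKO libraries and 1.82, 1.95 and 1.59 in Con libraries. Krt76, of the palate and other oral epithelium, averaged 19.3 ± 7.52 FPKM in cKO libraries and 18.8 ± 1.5 FPKM in Con libraries, and Krt12, of the cornea, averaged 4.51 ± 0.702 and 5.93 ± 1.59 FPKM in the same order.

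The keratins of activated and appendage epithelium were led by Krt17, and members again differed in direction. Krt17, a type I keratin of hair follicles and of epidermis after wounding, had 2458, 2701 and 2265 FPKM in cKO libraries, against 2118, 2139 and 1835 FPKM in Con libraries. The groups did not overlap, but the difference was not called (log2 fold change 0.28, SE 0.16, limma adjusted p = 0.448) and its sign turned with quantile normalization (-0.079) and with scaling to equal sums (-0.014). Krt42, a type I keratin known from the mouse nail unit, had 14.5, 15.4 and 15.2 FPKM in cKO libraries, against 11.2, 13.1 and 9.8 FPKM in Con libraries (log2 fold change 0.38, SE 0.15, limma adjusted p = 0.301). The cKO libraries were close to each other and above all Con libraries. Krt75, the type II keratin of the companion layer of the hair follicle, had 2.5, 3.65 and 1.87 FPKM in cKO libraries, against 5.4, 5.64 and 4.63 FPKM in Con libraries. It was lower in every cKO library, with a mean 0.511 times that of the Con libraries (log2 fold change -0.79, SE 0.21, limma adjusted p = 0.174).

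The wound keratins Krt6a, Krt6b and Krt16 differed by less than the spread between libraries. Krt16, a type I partner of Krt6 proteins, had 48.0, 56.5 and 40.8 FPKM in cKO libraries, against 39.9, 51.3 and 59.8 FPKM in Con libraries. The groups were interleaved, and the fold change of -0.049 (SE 0.19) was positive in 4 of the 16 alternatives. Krt6a averaged 6.27 ± 0.63 FPKM in cKO libraries and 6.23 ± 1.44 FPKM in Con libraries, and Krt6b averaged 3.5 ± 0.166 and 4.21 ± 1.17 FPKM in the same order (SD, n = 3 each). These genes have close copies in the genome: 45.7% of the 50-base words of Krt6a, 50.1% of those of Krt6b and 37.6% of those of Krt16 also occur in other genes, so their separate values are uncertain. Krt79, known from the upper hair follicle, averaged 25.9 ± 10.7 FPKM in cKO libraries and 22.2 ± 0.89 FPKM in Con libraries.

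All 6 tested keratins of the inner root sheath, the layer that moulds the growing hair, had lower mean values in cKO libraries (54.7% of all genes did), and their median log2 fold change was -0.52. None was called by limma over all genes, and 2 were lower at an unadjusted p under 0.05 (33.3%, against 7.82% of all genes). The 6 fold changes were negative under each of the 3 other scalings, with medians of -0.41 (quantile normalization), -0.44 (median centring) and -0.55 (equal sums, relative to the median of all genes). Krt71, a type II keratin and the highest of the class, whose start region holds TATAAA like those of all 7 members, had 12.2, 12.8 and 14.3 FPKM in cKO libraries, against 20.8, 25.4 and 20.1 FPKM in Con libraries. The groups were well apart (log2 fold change -0.71, SE 0.15, limma adjusted p = 0.125), and the fold change kept within -0.77 to -0.61 with 1 library left out at a time. Krt73 had 1.75, 5.31 and 5.1 FPKM in cKO libraries, against 6.36, 7.12 and 6.13 FPKM in Con libraries (log2 fold change -0.67, SE 0.31). Krt72 had 2.44, 2.7 and 0.891 FPKM in cKO libraries, against 4.93, 2.75 and 3.45 FPKM in Con libraries (log2 fold change -0.68, SE 0.29). Neither gene's groups overlapped, although in Krt72 the nearest libraries almost met. Leaving out 1 library moved them more than Krt71, to -0.28 for Krt73 without cKO_262 and to -0.38 for Krt72 without cKO_265. The type I members Krt25, Krt27 and Krt28 had fold changes of -0.37, -0.28 and -0.31, each with overlapping groups. Of the 50-base words of Krt25 and Krt27, 10.9% and 11.1% also occur in other genes, mostly in each other, so their values may not be fully separate. Krt26 stayed under the 0.5 FPKM filter with at most 0.312 FPKM.

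The hair shaft keratins were low in both groups, and the 12 of 15 that could be tested had a median log2 fold change of -0.25. Krt84 was the highest, at 9.2 ± 1.46 FPKM in cKO libraries and 11.6 ± 2.56 FPKM in Con libraries (SD, n = 3 each). Krt32, a type I keratin of the hair cuticle, had 0.124, 0.479 and 0.43 FPKM in cKO libraries, against 1.22, 1.44 and 1.26 FPKM in Con libraries. All cKO libraries were beneath 0.5 FPKM and all Con libraries above 1 FPKM, giving a log2 fold change of -0.79 (SE 0.18, limma adjusted p = 0.128). Because the added 1 FPKM understates changes of low genes, the same comparison with 0.1 FPKM added gave -1.78. Krt82, a type II keratin of the cuticle, had 1.6, 0.677 and 2.66 FPKM in cKO libraries, against 3.42, 2.85 and 2.77 FPKM in Con libraries. Its highest cKO library lay just beneath the lowest Con library (log2 fold change -0.67, SE 0.28, limma adjusted p = 0.313), and without cKO_263 the fold change was -0.38.

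For the remaining hair keratins the groups overlapped in every tested gene. Krt33a, Krt33b, Krt34, Krt35 and Krt36 had log2 fold changes from -0.41 (Krt33b) to -0.065 (Krt33a), each within 2 standard errors of 0. Krt31, Krt39 and Krt40 did not reach the filter, with at most 0.447, 0.813 and 0.935 FPKM. Krt39 was listed at 0 in cKO_262. Krt81, Krt83, Krt85 and Krt86 were given 1 shared locus in the tables (chromosome 15, 101431014 to 101491512), so their values cannot be tied to single genes. The GENCODE M21 annotation of the same build places Krt81, Krt83 and Krt86 there and holds no gene named Krt85. All 4 rows count among the 12 tested hair shaft keratins. Those 4 rows had group means from 2.4 to 7.41 FPKM in cKO libraries and from 2.57 to 8.27 FPKM in Con libraries, with fold changes from -0.20 to 0.17. Krt222 averaged 7.58 ± 1.82 FPKM in cKO libraries and 6.57 ± 0.184 FPKM in Con libraries.

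The lower, non-overlapping cKO values were found among the less abundant members. The 10 highest keratins had a median log2 fold change of 0.043 and the other 37 tested members one of -0.20. Lower values were found for 4 of the 10 (40.0%) and 28 of the 37 (75.7%), against 54.7% of all genes. All 10 members with lower, non-overlapping cKO values belonged to the 37 (27.0%, against 11.9% of all genes). All genes were not split by level in this way. Their median was 0.022 at a mean of at least 5 FPKM, against -0.035 for all tested genes, so a contrast by level may not be particular to keratins. The cut falls just above Krt10 and Krt77, at ranks 11 and 12 (44.5 and 34.5 FPKM over the 6 libraries), so their side of it depends on where it was placed. The contrast of medians does not hold under every scaling: with quantile normalization the 10 highest had a median of -0.26 and the others one of -0.14. Type I and type II members had medians of -0.17 and -0.14. The summed type I FPKM was nevertheless 2.04, 2.26 and 2.05 times the type II sum in cKO libraries and 1.86, 1.75 and 1.71 times in Con libraries. Krt17 and Krt14, both type I, made up most of that sum.

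**Figure D4:**
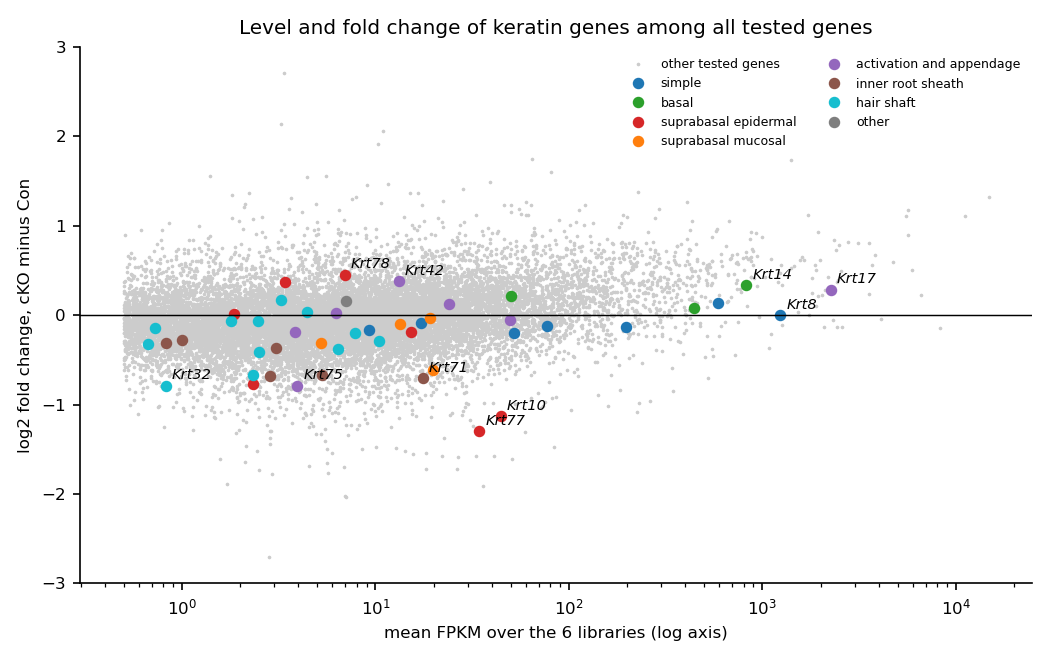
Log2 fold change (cKO minus Con) against mean FPKM over the 6 libraries (log axis) for keratins, coloured by class, over all other tested genes in grey; 3 genes beyond the plotted range are not shown. Krt77 and Krt10 lie at the lower edge of the genes of their level, whereas Krt8, Krt14 and Krt17 lie among the bulk of the abundant genes.

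Along the 2 chromosomes, keratins with lower values stood both beside each other and beside neighbours nearer 0. On chromosome 11, 17 of the 23 tested members had lower values in cKO libraries (73.9%, median -0.20), and on chromosome 15, 15 of 24 (62.5%, median -0.12), against 54.7% of all genes. Krt10 (chromosome 11, 99385256 to 99389364) stood beside Krt28 at -0.31 and Krt12 at -0.31. Krt77 (chromosome 15, 101859856 to 101869618) lay between Krt1 at -0.19 and Krt76 at -0.034, both with intervals that included 0. Krt71, Krt72 and Krt73, the 3 type II keratins of the inner root sheath, are neighbours (chromosome 15, 101733949 to 101802332) and had fold changes of -0.71, -0.68 and -0.67, of which those of Krt72 and Krt73 rested in part on 1 library as given above. At the far end of chromosome 11, Krt17 and Krt42 are also neighbours and had fold changes of 0.28 and 0.38, of which that of Krt17 turned with quantile normalization and with scaling to equal sums.

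**Figure D5:**
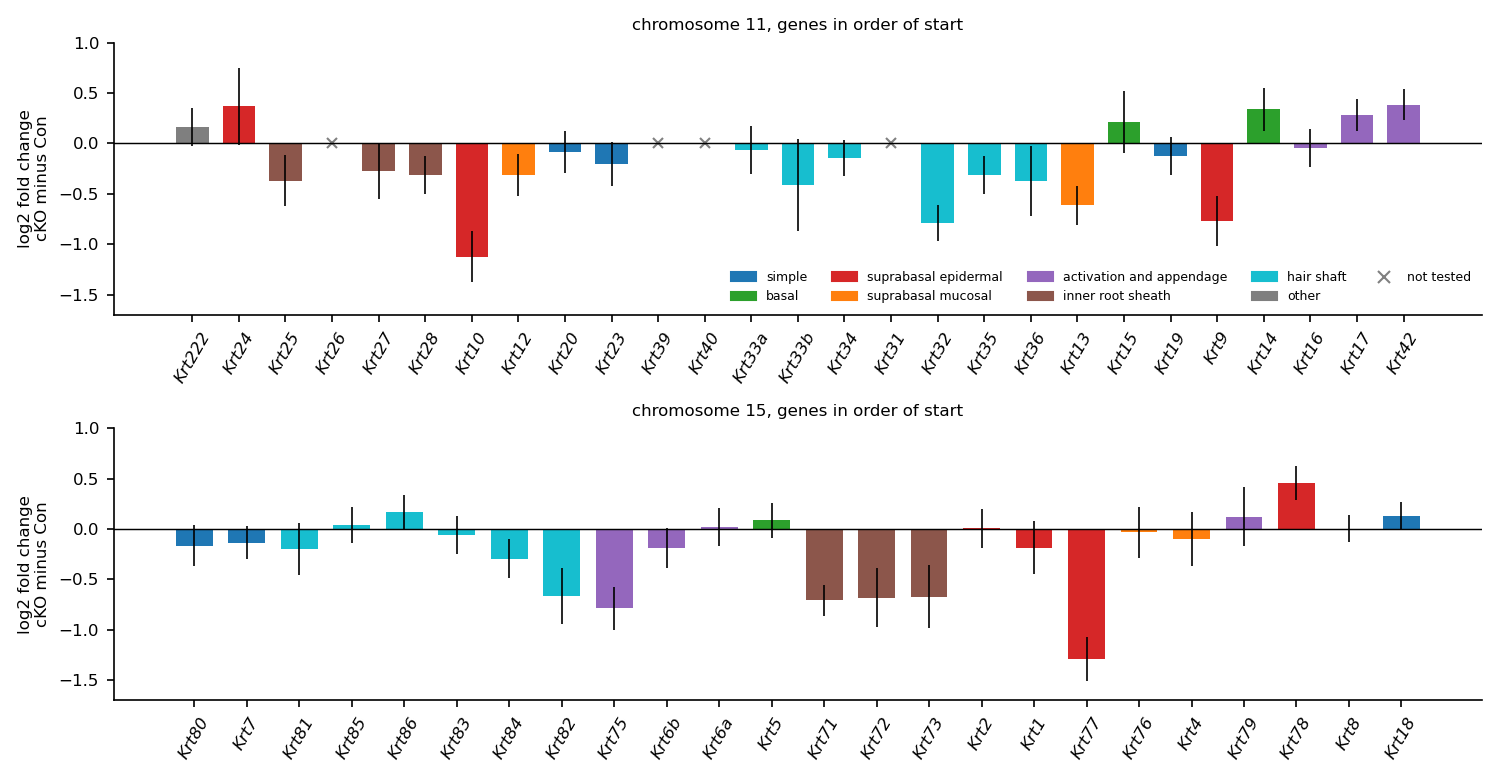
Log2 fold change (cKO minus Con) of the keratins in their order along chromosome 11 (top) and chromosome 15 (bottom), coloured by class, with the standard error of the fit as lines; crosses mark the 4 members that were not tested. Krt10 and Krt77 reach -1.13 and -1.29 beside neighbours nearer 0, and Krt71, Krt72 and Krt73 stand together near -0.7.

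Among the genes that anchor keratin filaments, Col17a1 had the largest difference and the smallest p. None of 19 tested genes of desmosomes, hemidesmosomes and plakins was called at an adjusted p under 0.05, and at an unadjusted p under 0.05 limma gave 1 with higher and 2 with lower values (5.26% and 10.5%, against 6.81% and 7.82% of all genes). Col17a1, a collagen of the hemidesmosome, had 151.0, 152.1 and 192.6 FPKM in cKO libraries, against 105.9, 101.1 and 74.7 FPKM in Con libraries. All cKO libraries were above all Con libraries (log2 fold change 0.82, SE 0.18, limma adjusted p = 0.125). The plakin gene Eppk1 was at -0.57 (adjusted p = 0.269) and the integrin gene Itga6 at -0.38 (adjusted p = 0.296). Their list had a median of -0.10.

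Of 19 tested regulators of keratin genes and stratified epithelium, 15 had lower values in cKO libraries (78.9%, against 54.7% of all genes), and 12 with quantile normalization (63.2%, against 48.8% of all genes) and 11 with median centring (57.9%, against 43.8%). None was called at an adjusted p under 0.05, and 3 had lower values at an unadjusted p under 0.05 (15.8%, against 7.82% of all genes). Trp63, the p63 transcription factor of stratified epithelium, had 11.3, 10.1 and 10.3 FPKM in cKO libraries, against 17.1, 17.8 and 22.5 FPKM in Con libraries. Its groups were well apart (log2 fold change -0.79, SE 0.16, limma adjusted p = 0.118). The ETS family genes Elf3 and Ehf were at -0.61 (adjusted p = 0.19) and -0.42 (adjusted p = 0.312). With scaling to equal sums, Trp63 at -1.1 and Elf3 at -0.91 passed, against a median of -0.30 for all genes. Foxn1, the factor whose regulatory sequence drives the Cre, was at -0.24 (adjusted p = 0.498).

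Among the intermediate filament genes outside the keratin family, Vim had the smallest p, with higher values in cKO libraries. Vim, which encodes vimentin of mesenchymal and many cultured cells, had 491.3, 560.4 and 537.2 FPKM in cKO libraries, against 319.1, 323.1 and 313.8 FPKM in Con libraries. The groups were far apart, but the difference did not pass over all genes (log2 fold change 0.73, SE 0.13, limma adjusted p = 0.107). Lmna, for lamins A and C of the nuclear envelope, was at 0.33, Prph at 0.55 and Des at -0.57, with adjusted p of 0.278, 0.295 and 0.275. None of 16 tested genes of this list was called, and 3 had higher and 1 lower values at an unadjusted p under 0.05 (18.8% and 6.25%, against 6.81% and 7.82% of all genes). Of 13 tested genes of the cornified layer none was called either, and 1 had higher and 2 lower values at an unadjusted p under 0.05 (7.69% and 15.4%). The transglutaminase gene Tgm3 was at -0.89 (adjusted p = 0.165), the protease gene Casp14 at -0.55 (adjusted p = 0.27) and Krtdap at 0.63 (adjusted p = 0.183). Ivl and Lor, for involucrin and loricrin of the cornified envelope, were at 0.20 and 0.071.

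Markers of some other cells were lower in cKO libraries alongside the keratins with lower values. All 6 markers of tuft-like mTECs were lower in each cKO library than in any Con library (11.9% of all genes were). Their sums were 37.5 to 49.5 FPKM in cKO libraries and 111.5 to 132.2 FPKM in Con libraries. Rgs13 and Avil passed the test over all genes (limma adjusted p = 0.0113 and 0.0139), in which 0.0573% of all genes were called lower. All 7 tested thymocyte markers also had lower values (54.7% of all genes did), with sums of 26.3 to 34.7 FPKM in cKO libraries and 39.9 to 65.3 FPKM in Con libraries. Endothelial markers summed to 4.24 to 5.04 FPKM in cKO libraries and 6.59 to 7.09 FPKM in Con libraries. Myeloid and dendritic markers summed to 250.3 to 287.7 and 334.7 to 374.2 FPKM in the same order. Nearly all of that sum was Lyz2, at 241.7 to 275.1 FPKM in cKO libraries and 324.2 to 362.2 FPKM in Con libraries. Every other marker of that list overlapped between the groups, and Flt3 had a log2 fold change of 0.22. The sums of fibroblast markers (20.7 to 26.2 FPKM in cKO libraries, 23.7 to 32.7 FPKM in Con libraries) and B cell markers (4.27 to 9.01 and 8.42 to 9.11 FPKM) overlapped between the groups. So did the sum of the 3 immature mTEC markers that were found (42.1 to 66.1 and 56.0 to 62.6 FPKM). Among those 3, however, Trp63 was lower in every cKO library, as given above. No marker was at 0 in every library. The part of these cells in the keratin differences was not tested.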

How the data were processed

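RNA was taken from flow-sorted mTECs of 3 cKO and 3 Con libraries, reverse transcribed and amplified by whole-transcriptome amplification (a single-cell kit) ahead of Illumina library preparation, per the labels' protocols. Such amplification can favour transcripts by length and base composition. Each library has 1 table of FPKM deposited by the authors, made with Bowtie2 2.2.5 and Cufflinks on mm10, per the submitters' processing notes. The annotation, strand setting and scaling are not given in the sources used here. No counts were used, so depth is unknown and no counting error is given.

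Rows of a symbol were summed, and 44 rows whose symbols had become dates were left out. The test was limma 3.58.1 (R 4.3.3) on log2(FPKM + 1), for the 15720 of 20443 genes that averaged 0.5 FPKM or more (lmFit, then eBayes with trended variance, 2-sided, Benjamini-Hochberg over all tested genes), a script tested first on simulated data. Fold changes are cKO minus Con, each with its standard error (SE) from limma. They understate changes of low genes. Coordinates are those of the tables (mm10). Shared 50-base words were counted in GENCODE M21 transcripts, and promoters came from RefSeq (GRCm38.p6). For 14 keratins more than 10% of their words also occurred in other genes, among them Krt14 (13.9%), Krt33a (17.8%), Krt33b (24.2%) and Krt34 (33.1%).

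The members, the classes and the comparison lists were chosen with earlier results of these data known. Genes named with all values are the textbook pairs, the 10 highest members and the 10 with the smallest p, and in each comparison list the 2 to 4 with the smallest p. Krt72, Krt73 and a few list genes were named after their values were seen. Alternatives were 3 other scalings, a pseudocount of 0.1, a filter at 5 FPKM or none, array weights, no variance trend, the highest row of a symbol and leaving out libraries.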

Additional observations from a re-analysis of the deposited data

How the results depend on the processing

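Of 348 recomputed fold changes of the 21 keratins described one by one and of Kdm6b under 16 alternatives, 306 kept their direction and their side of the threshold, 15 kept their direction and passed it, and 27 changed sign. Of these keratins, 11 kept their sign throughout: Krt10, Krt77, Krt71, Krt32, Krt75, Krt13, Krt9, Krt82 and Krt23 (lower in cKO libraries), and Krt78 and Krt42 (higher). No keratin was called when the pseudocount, the filter, quantile normalization, median centring, the variance trend, the row rule or the libraries were altered. Called keratins numbered 4 with scaling to equal sums and 12 with array weights, and called comparison genes 2 and 17. Over all genes these 2 settings called 207 (10 higher, 197 lower) and 3025 (1367 higher, 1658 lower), against 12 (3 higher, 9 lower) with FPKM as deposited. Quantile normalization called 5 higher genes, and 4 lower ones were called without Con_253 and cKO_265 together. With 1 library left out, called genes ranged from 2 to 23 (1 to 9 higher, 1 to 14 lower).

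Keratins with lower values at an unadjusted p under 0.05 numbered 9 as reported, 4 at a mean of at least 5 FPKM, 20 with scaling to equal sums and 16 with array weights, and 6 to 12 with 1 library left out. Those with higher values numbered 2 as reported, 0 with scaling to equal sums, 4 with array weights, 1 without Con_253 and cKO_265, and 0 to 3 with 1 library left out. The median keratin was at -0.14 as reported, -0.45 with scaling to equal sums and -0.037 with array weights, and from -0.25 to -0.099 with 1 library left out.

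Signs turned as follows. Scaling to equal sums gave -0.22 for Krt5, -0.30 for Krt8, -0.17 for Krt18, -0.014 for Krt17 and -0.082 for Krt15, all near or above the shifted median of -0.30. Quantile normalization gave -0.25 for Krt5, -0.12 for Krt14, -0.45 for Krt8, -0.27 for Krt18 and -0.079 for Krt17. Array weights gave -0.034 for Krt8, 0.052 for Krt19, -0.031 for Krt15 and 0.067 for Krt16, and median centring 0.031 for Krt16. Without Con_253 and cKO_265 the values were 0.068 for Krt7, 0.072 for Krt19 and -0.11 for Krt15. With 1 library left out, fold changes ranged from -0.075 to 0.20 for Krt5 (0.24 without both Con_253 and cKO_265, with its sign kept), -0.020 to 0.021 for Krt8, -0.37 to 0.14 for Krt1, -0.22 to 0.011 for Krt7, -0.32 to 0.039 for Krt19, -0.12 to 0.56 for Krt15 and -0.20 to 0.082 for Krt16. The cause of these changes was not tested. No paired analysis was possible because the groups share no replicate numbers. The number of reads is unknown, so how far depth limits the 18 tested keratins with a mean under 5 FPKM cannot be given.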
